A study of Mus musculus with 12 samples.

Results

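The 10 genes of glycolysis and lactate export, Slc2a1, Hk2, Pfkp, Aldoa, Tpi1, Pgk1, Eno1, Pkm, Ldha and Slc16a3, were followed in CD4+ T cells that did or did not express a reporter of the T-box transcription factor EOMES. They were taken by symbol from a count matrix of 43626 genes, and all 10 were among the 13238 genes that passed a filter on low counts. All donor mice carried 1 conditional (flox) and 1 green fluorescent protein (GFP) allele of Eomes. Donors without cre are called Het. Donors with Lck-cre are called KO. This recombinase, driven by the promoter of a T cell kinase, acts on the flox allele. Naive CD4+ T cells (CD45RBhi CD25-) of these donors were given to adult male Rag2-/- mice, which lack T and B cells but keep their myeloid and NK cells, and 3 weeks later GFP-positive and GFP-negative CD4+ cells were sorted from each spleen. The 2 sorts from the 2 kinds of donor make 4 groups of 3 libraries. Within a genotype, libraries that carry 1 number share a recipient, so the data hold 6 recipients with a pair of libraries each.

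Glycolysis turns glucose into pyruvate in the cytosol, and an activated T cell that divides draws heavily on it. Glucose enters through transporters such as the product of Slc2a1, hexokinase traps it, and a chain of enzymes makes ATP at the steps of phosphoglycerate kinase and pyruvate kinase. Pyruvate is then either reduced to lactate, which leaves the cell through monocarboxylate transporters, or carried into mitochondria. The transcription factors HIF-1 and MYC are known to raise the genes of this pathway.

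Depth differed between the sorts. Total counts were 11492908 to 18167236 in the GFP-negative libraries and 2116894 to 8608902 in the GFP-positive ones, which came from 18000 to 117000 cells against 645000 to 2100000. A set of 4 abundant features, among them the mitochondrial ribosomal RNAs, took 58.3% of the counts of Het GFP-positive replicate 2 and 54.3% of those of KO GFP-positive replicate 2, and 16.3% to 30.9% elsewhere. Eomes was at 1.95 to 9.19 CPM (counts per 1e+06) without GFP, and among GFP-positive libraries at 31.6 to 46.6 CPM in KO and 89.8 to 123 CPM in Het recipients. The summed level of 10 T cell markers was lower, and that of 15 myeloid markers higher, in the GFP-positive library of 6 of 6 recipients. In Het recipients the myeloid sum was 308 to 2396 CPM without and 940 to 6372 CPM with GFP, and in KO recipients 52.9 to 1053 CPM without and 518 to 2790 CPM with GFP, with none of the 15 genes at 0 in every library. Its most abundant genes were S100a9 (9.63 to 1577 CPM over the 12 libraries) and Ltf (5.51 to 1394 CPM), both of neutrophils, while Cd4 ran from 435 to 946 CPM. Markers of red cells and platelets summed to 8.85 to 102 CPM in the GFP-negative and 44.7 to 311 CPM in the GFP-positive libraries, also higher in 6 of 6 recipients. Sums were 2.12 CPM at most for 6 B cell markers and 4.57 CPM at most for the CD8 genes. The part of these other cells in the values that follow was not tested, and in bulk RNA fewer cells of a type and less RNA per cell cannot be told apart.

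The members lie on 7 chromosomes of GRCm38. Within recipients, Eno1, Pgk1 and Ldha fell in GFP-positive cells and Hk2 rose. The 250 bases upstream of a RefSeq start are shown for these 4 genes because they were the members called there. Marked in them are short motifs by which the HIF-1 pathway is known to act, and 9 of the 10 members had such a motif near a start. Sequences are from RefSeq (GRCm38.p6), 5′ to 3′ on the gene's strand, with capitals marking the HIF core ACGTG or GCGTG on either strand (CACGT or CACGC where read on the other), extended to CACGTG where the core lies in this E-box. Eno1 (ENSMUSG00000063524.9, chromosome 4, 150236721 to 150248879, plus strand) encodes enolase, which makes phosphoenolpyruvate, and its stretch at chr4:150236458-150236707 holds 1 core. Pgk1 (ENSMUSG00000062070.8, chromosome X, 106187100 to 106203699, plus strand) encodes phosphoglycerate kinase, and its stretch at chrX:106186850-106187099 holds 2 cores on opposite strands, the first starting 150 bases before the start site. Ldha (ENSMUSG00000063229.10, chromosome 7, 46841475 to 46855627, plus strand) encodes the A subunit of lactate dehydrogenase, and its stretch at chr7:46845554-46845803, which lies inside the annotated gene before an internal start, holds 5 matches on both strands, of which 4 are the 2 strands of 2 E-boxes. Hk2 (ENSMUSG00000000628.6, chromosome 6, 82725025 to 82774454, minus strand) encodes the inducible hexokinase of activated T cells, and its stretch at chr6:82774455-82774704 holds 2 cores.
Eno1: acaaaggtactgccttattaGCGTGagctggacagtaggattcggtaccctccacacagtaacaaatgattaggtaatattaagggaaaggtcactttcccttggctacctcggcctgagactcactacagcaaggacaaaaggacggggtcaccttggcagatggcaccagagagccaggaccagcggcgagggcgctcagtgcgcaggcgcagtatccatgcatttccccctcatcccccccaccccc
Pgk1: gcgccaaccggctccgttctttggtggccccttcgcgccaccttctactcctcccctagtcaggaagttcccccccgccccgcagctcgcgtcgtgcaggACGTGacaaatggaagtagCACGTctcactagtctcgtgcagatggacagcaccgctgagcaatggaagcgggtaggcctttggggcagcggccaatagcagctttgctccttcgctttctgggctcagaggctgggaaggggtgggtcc
Ldha: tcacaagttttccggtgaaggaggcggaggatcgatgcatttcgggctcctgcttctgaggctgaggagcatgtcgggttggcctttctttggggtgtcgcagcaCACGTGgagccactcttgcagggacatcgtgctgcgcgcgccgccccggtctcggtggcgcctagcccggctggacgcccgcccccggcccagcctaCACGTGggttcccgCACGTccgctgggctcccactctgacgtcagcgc
Hk2: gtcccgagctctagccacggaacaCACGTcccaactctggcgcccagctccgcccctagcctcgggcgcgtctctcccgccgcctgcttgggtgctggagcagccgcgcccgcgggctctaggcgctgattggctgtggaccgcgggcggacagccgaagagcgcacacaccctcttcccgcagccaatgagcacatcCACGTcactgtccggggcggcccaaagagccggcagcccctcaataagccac

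Over windows of 300 bases (250 before to 50 after each RefSeq start), 9 of the 10 members had either HIF core in at least 1 window, all but Tpi1, against 46.7% of 27025 genes. A gene with several starts had more windows in which to match. Of the 32851 windows 43.8% held either core, and Aldoa and Pkm each also had a window without one. ACGTG alone was found for 7 of the 10 members and 21.8% of genes, and GCGTG for 4 of the 10 and 35.2% of genes. The E-box CACGTG, which contains ACGTG, was found for Ldha alone among the members and for 8.09% of genes. The T-box motif AGGTGTGA was in no member's window and in those of 1.48% of genes, and its core GGTGTG was in the windows of Slc2a1, Hk2 and Aldoa and of 21.4% of genes. Matches were counted on both strands and describe letters only, not binding.

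Levels differed more between genes than between groups. Per kilobase of exon, Pkm stood highest, at a mean of 201 CPM per kb over the 12 libraries, followed by Ldha at 127 and Aldoa at 81.3 CPM per kb. Eno1 (48.6), Pgk1 (39.2), Pfkp (32.9) and Tpi1 (31.8 CPM per kb) formed the middle. Slc2a1 was at 14.3 CPM per kb, and Hk2, at 4.73, and Slc16a3, at 3.61, were the lowest. Neighbours in this order had overlapping ranges over the 12 libraries except Ldha, which lay under every Pkm value (171 to 261 CPM per kb) with its highest at 162, Slc2a1, whose highest of 18.7 lay under the lowest Tpi1 value of 19.6 CPM per kb, and Hk2, whose highest of 7.68 lay under the lowest Slc2a1 value of 9.51 CPM per kb. The thinnest value rested on 26 counts, for Slc16a3 in KO GFP-positive replicate 2. Between the lowest and the highest library a member moved by 1.52-fold (Pkm) to 2.40-fold (Hk2). Counts of Eno1 and Pgk1 could be split with near-identical copies elsewhere in the genome: Eno1b matched Eno1 at 99.5% over 1736 bases and Pgk1-rs7 matched Pgk1 at 100% over 1255 bases. Adding the counts of such copies changed no call within recipients. Slc2a1, Tpi1 and Pfkp share 105, 34 and 372 exon bases with a gene on the opposite strand, at most 3.96% of their length, and the strand setting of the counting is not given in the sources used here. Values below are CPM scaled by TMM (trimmed mean of M-values), in the order of replicates 1, 2 and 3.

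**Figure D1:**
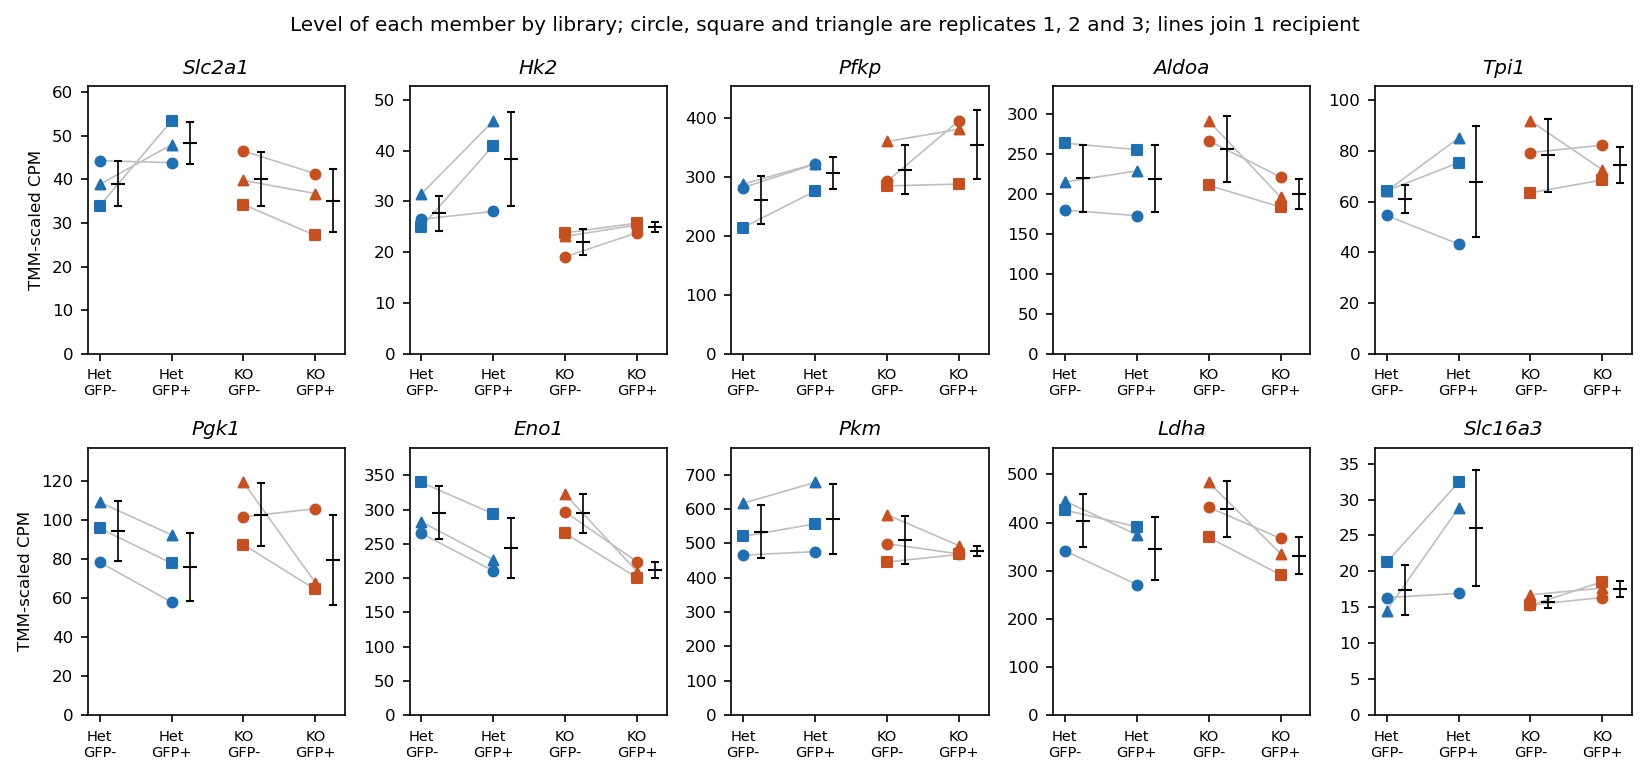
Level of each member (y axis, TMM-scaled CPM from 0) in the 12 libraries by group (x axis), with symbols for replicates 1 to 3, grey lines joining the libraries of 1 recipient, and black bars for the mean and SD of 3 libraries. Lines fall in all 6 recipients for Eno1 and Ldha and rise in all 6 for Hk2, Pfkp and Slc16a3, while Pkm stays between 445 and 677 CPM.

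Among the genes that bring glucose in and commit it, Slc2a1 (ENSMUSG00000028645.6, chromosome 4, 119108711 to 119137330, plus strand), the glucose transporter GLUT1, stood at 44.3, 34.0 and 38.9 CPM in Het GFP-negative and 43.9, 53.5 and 48.0 CPM in Het GFP-positive libraries. In KO cells it stood at 46.5, 34.2 and 39.8 CPM without and 41.3, 27.1 and 36.8 CPM with GFP. All 3 Het GFP-positive values lay above all 3 KO GFP-positive ones, and the other groups overlapped. Slc2a1 was higher in GFP-positive cells in 2 of 3 Het recipients and in 0 of 3 KO recipients, and its difference within recipients was 0.06 on the log2 scale (95% interval -0.18 to 0.30).

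Hk2 was at 26.5, 25.0 and 31.4 CPM in Het GFP-negative and at 28.0, 41.0 and 45.8 CPM in Het GFP-positive libraries. Its KO levels were 19.1, 23.8 and 23.1 CPM without GFP and 23.8, 25.7 and 25.3 CPM with GFP. Het libraries lay above KO libraries of the same sort without overlap, and KO GFP-positive above KO GFP-negative by a margin that vanishes on rounding. The KO GFP-positive group was tight, at 24.9 ± 1.01 CPM (SD, n = 3), and the Het GFP-positive group wide, at 38.3 ± 9.22 CPM (SD, n = 3). Pfkp (ENSMUSG00000021196.9, chromosome 13, 6579768 to 6648777, minus strand), the platelet-type phosphofructokinase that T cells also use, was at 282, 214 and 288 CPM in Het GFP-negative and 322, 276 and 323 CPM in Het GFP-positive libraries. It was at 293, 285 and 361 CPM in KO GFP-negative and 396, 288 and 382 CPM in KO GFP-positive libraries, so that the sorts overlapped within each genotype although the GFP-positive library was the higher in 6 of 6 recipients.

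Of the enzymes that split the sugar, Aldoa (ENSMUSG00000030695.9, chromosome 7, 126795234 to 126800751, minus strand), aldolase A, was at 180, 264 and 215 CPM in Het GFP-negative and 173, 256 and 229 CPM in Het GFP-positive libraries. In KO libraries it was at 267, 211 and 292 CPM without and 221, 183 and 196 CPM with GFP. It was lower in GFP-positive cells in 5 of 6 recipients, with Het recipient 3 the exception, and the groups overlapped. Tpi1 (ENSMUSG00000023456.10, chromosome 6, 124810586 to 124814296, minus strand), triosephosphate isomerase, was at 54.5, 64.2 and 64.1 CPM without and 43.2, 75.3 and 85.1 CPM with GFP in Het cells. Its KO values were 79.3, 63.4 and 91.8 CPM without and 82.2, 68.5 and 72.6 CPM with GFP. Het GFP-positive replicates spread from the lowest Tpi1 value of all 12 libraries to above most of them.

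The next 3 genes act at the lower, ATP-yielding end of the pathway. Pgk1 was at 78.2, 95.6 and 109 CPM in Het GFP-negative and 57.7, 77.7 and 92.2 CPM in Het GFP-positive libraries. Its KO values were 101, 87.2 and 119 CPM without GFP and 106, 64.2 and 67.8 CPM with GFP, so KO recipient 1 went against the other 5. Eno1 was at 265, 340 and 282 CPM in Het GFP-negative and 210, 294 and 227 CPM in Het GFP-positive libraries. All 3 KO GFP-positive values of Eno1, 224, 201 and 210 CPM, lay under the KO GFP-negative ones of 297, 265 and 322 CPM. The Het groups overlapped for Eno1 although each recipient's own pair had the GFP-positive library lower. Pkm (ENSMUSG00000032294.12, chromosome 9, 59656368 to 59679375, plus strand), pyruvate kinase of muscle and dividing cells, whose splice forms these gene counts do not separate, was at 466, 520 and 616 CPM in Het GFP-negative and 476, 557 and 677 CPM in Het GFP-positive libraries. It was at 499, 445 and 583 CPM in KO GFP-negative and 469, 468 and 493 CPM in KO GFP-positive libraries, with no group apart from another.

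Lactate is made by the product of Ldha and exported by that of Slc16a3. Ldha was at 341, 426 and 445 CPM in Het GFP-negative and 271, 391 and 374 CPM in Het GFP-positive libraries. Its KO values of 432, 369 and 483 CPM without GFP lay above all of those with GFP, which were 367, 291 and 336 CPM. Slc16a3 (ENSMUSG00000025161.12, chromosome 11, 120948480 to 120960868, plus strand), the transporter MCT4, was at 16.4, 21.2 and 14.5 CPM in Het GFP-negative and 16.9, 32.4 and 28.8 CPM in Het GFP-positive libraries. In KO libraries it was at 15.3, 15.3 and 16.7 CPM without GFP and 16.4, 18.6 and 17.7 CPM with GFP. The high Slc16a3 values of Het GFP-positive replicates 2 and 3 came in the libraries with the highest myeloid sums, 4900 and 6372 CPM, and Hk2 was also highest there. Het GFP-negative replicate 3, with a myeloid sum of 2396 CPM, had the lowest Slc16a3 value of the 12 libraries, 14.5 CPM, and an Hk2 value of 31.4 CPM. The part of myeloid RNA in these 2 genes was not tested.

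Comparing the sorts within each recipient asked whether the cells that express the reporter differ from their neighbours in the same host. With the recipient as a block and both genotypes averaged, 4 of the 10 members passed edgeR's quasi-likelihood test at a false discovery rate (FDR, Benjamini-Hochberg over all tested genes) of 0.05, where 41.1% of all 13238 tested genes did, so the members' share was near the background. Hk2, of the first step, rose, and 3 genes of the later steps fell, where 20.3% of all tested genes rose and 20.7% fell. The median of the 10 log2 fold changes was 0.01 beside -0.02 over all tested genes. The log2 fold change of Eno1 was -0.38 (SE 0.09, FDR 0.00698), and Pgk1 fell by 0.36 (SE 0.12, FDR 0.0276) and Ldha by 0.30 (SE 0.10, FDR 0.0277), each in edgeR's fit. Hk2 rose by 0.32 (SE 0.12, FDR 0.0455). Slc16a3 did not pass, at 0.35 (SE 0.14, FDR 0.0644), nor did Pfkp at 0.21 (FDR 0.112) and Aldoa at -0.18 (FDR 0.152).

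Pkm, Tpi1 and Slc2a1 gave fitted differences within recipients near 0. For Pkm the 95% interval of the log2 fold change was -0.22 to 0.22, and for Tpi1 it was -0.24 to 0.27. Both intervals end short of the 0.32 fitted for Hk2, and they do not show that the levels were equal. With an offset for GC content and length Pkm went to -0.24 (FDR 0.0741), outside its interval above, so its value near 0 depends on the processing.

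Recipient by recipient, on the log2(CPM + 1) scale, Eno1 differed by -0.33, -0.21 and -0.31 in Het and by -0.40, -0.40 and -0.62 in KO recipients. Ldha differed by -0.33, -0.12 and -0.25 in Het and by -0.23, -0.34 and -0.53 in KO recipients. Hk2 differed by 0.08, 0.69 and 0.53 in Het and by 0.31, 0.11 and 0.13 in KO recipients. Thus 5 members kept 1 direction in 6 of 6 recipients, Eno1 and Ldha lower and Hk2, Pfkp and Slc16a3 higher, where 37.6% of all tested genes did (17.7% higher and 19.9% lower). The two-sided exact sign-flip test gave p = 0.03125 for each of these 5, the smallest value that 6 recipients allow, with 10 such tests and no adjustment. Pgk1 differed by -0.43, -0.30 and -0.24 in Het and by 0.06, -0.43 and -0.80 in KO recipients, with an exact p of 0.0625. Slc16a3 differed by 0.05, 0.59 and 0.94 in Het and by 0.09, 0.27 and 0.07 in KO recipients, so its mean rests mostly on Het recipients 2 and 3.

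**Figure D2:**
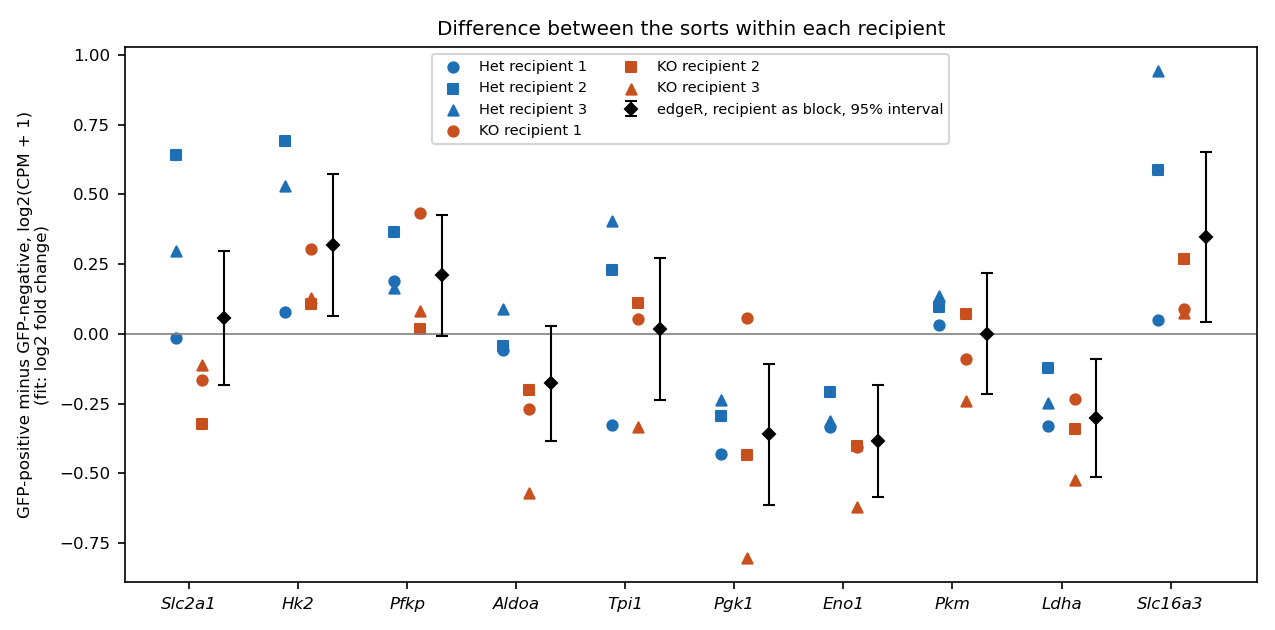
GFP-positive minus GFP-negative difference of each member (y axis, log2(CPM + 1)) in the 6 recipients (coloured symbols), with the log2 fold change of the fit with the recipient as block and its 95% interval (black). Eno1 and Ldha lie under 0 in every recipient and their intervals exclude 0, whereas Slc2a1 is positive only in Het recipients 2 and 3.

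How many members were called changed when a recipient was left out, as did the share of all tested genes called, which was 41.1% with none left out. Eno1 alone was called without Het recipient 2 (28.8% of genes called), Het recipient 3 (34.4%), KO recipient 2 (32.8%) and KO recipient 3 (25.2%). Without Het recipient 1 the called members were Hk2, Eno1 and Slc16a3 (33.2% of genes). Without KO recipient 1 they were Pgk1, Eno1 and Ldha (45.8% of genes). Eno1 passed in 13 of 13 alternatives (FDR 0.000159 to 0.0466), Pgk1 and Ldha in 7 of 13 each (FDR 0.00201 to 0.158 and 0.00544 to 0.132) and Hk2 in 4 of 13 (FDR 0.0303 to 0.503). With an offset for GC content and length, the called members were 0 higher and 4 lower, where 41.8% of all tested genes were called in either direction. The 4 were Eno1 (-0.76), Aldoa (-0.41), Ldha (-0.38) and Pgk1 (-0.32). Under this offset Hk2 went to 0.09 (FDR 0.503), Slc16a3 to 0.00 and Pfkp to -0.04 on the log2 scale. The median over all tested genes was -0.08 there. The share of all genes called was not split by direction under this offset, so the members' directions have no background beside them.

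Between the sorts of Het recipients, the question named in the design text is what marks cells that express Eomes. No member passed edgeR's test without the recipient block, where 3.45% of tested genes did. DESeq2 called 0 members too, where 8.21% of the genes it tested were called. At an unadjusted p under 0.05, 2 members stood out, Slc16a3 (log2 fold change 0.57, SE 0.23, FDR 0.176) and Hk2 (0.47, SE 0.19, FDR 0.178), where 23.2% of tested genes did. No member had groups that did not overlap, against 27.3% of tested genes. With the block, still 0 members were called, against 22.2% of genes, Slc16a3 having an FDR of 0.0567 and Hk2 of 0.0678.

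In KO cells the same contrast of sorts gave 0 called members by edgeR without the block, where 0.128% of tested genes were called. DESeq2 also gave 0, where 2.87% of the genes it tested were called. Eno1 was the 1 member with an unadjusted p under 0.05 (log2 fold change -0.48, SE 0.17, FDR 0.236), against 17.5% of genes. With the recipient as a block Eno1 fell by 0.48 (FDR 0.0300), the only member called where 17.7% of genes were. Groups did not overlap for 3 members, where 20.3% of genes did not: Hk2 was higher, as 9.52% of genes were, and Eno1 and Ldha lower, as 10.8% were. Ldha had a log2 fold change of -0.37 (FDR 0.323) and Hk2 of 0.18 (FDR 0.625).

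Het and KO GFP-positive cells were compared because, per the design text, this shows which genes depend on Eomes. Again 0 members passed edgeR's test, where 0.106% of tested genes did, and 0 passed by DESeq2, where 0.700% did. An unadjusted p under 0.05 was seen for 3 members, all with higher values in Het cells, where 6.22% of tested genes had one. They were Hk2 (0.62 on the log2 scale, SE 0.20, FDR 0.512), Slc16a3 (0.57, SE 0.24, FDR 0.774) and Slc2a1 (0.43, SE 0.19, FDR 0.781). Groups did not overlap for Hk2 and Slc2a1, both higher, against 7.48% of genes (4.22% higher), and the exact permutation test gave p = 0.1 for both, the smallest that 3 against 3 libraries allow. The Het GFP-positive libraries held myeloid marker sums of 940 to 6372 CPM against 518 to 2790 CPM in KO GFP-positive ones, and the part of this in the 3 genes was not tested. This comparison shares the Het GFP-positive libraries with that of the Het sorts.

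GFP-negative cells of the 2 genotypes were compared as cells without the reporter. No member passed edgeR's test or DESeq2, where 0% of tested genes did by edgeR and 0.332% by DESeq2. No member had an unadjusted p under 0.05 by edgeR, where 5.25% of genes had. Hk2 was higher in Het cells without overlap of the groups (0.33 on the log2 scale, FDR 0.970), where 11.3% of genes did not overlap (5.37% higher). The interaction tests whether the difference between sorts was itself different in Het and KO recipients. It was called for 0 members by edgeR, where 0.00755% of genes were called, and for 0 by DESeq2, where 0.0693% were. None had an unadjusted p under 0.05, against 1.99% of genes. With the recipient as a block the interaction was again called for 0 members, where 0.0755% of genes were. Slc2a1 had the largest value, 0.47 (95% interval -0.09 to 1.04), and all 10 values were above 0, with a median of 0.21 beside 0.00 over all genes. The values are linked, as all 10 come from the same 12 libraries. Under alternatives the lowest interaction values of Pgk1 and Pfkp, both 0.05 in this fit, were -0.11 and -0.08. Those of the other members stayed above 0. The authors' deposited tables, which list 1406, 77 and 388 genes with an adjusted p under 0.05 for the Het sorts, the GFP-positive groups and the KO sorts in that order, list 0 of the members.

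**Figure D3:**
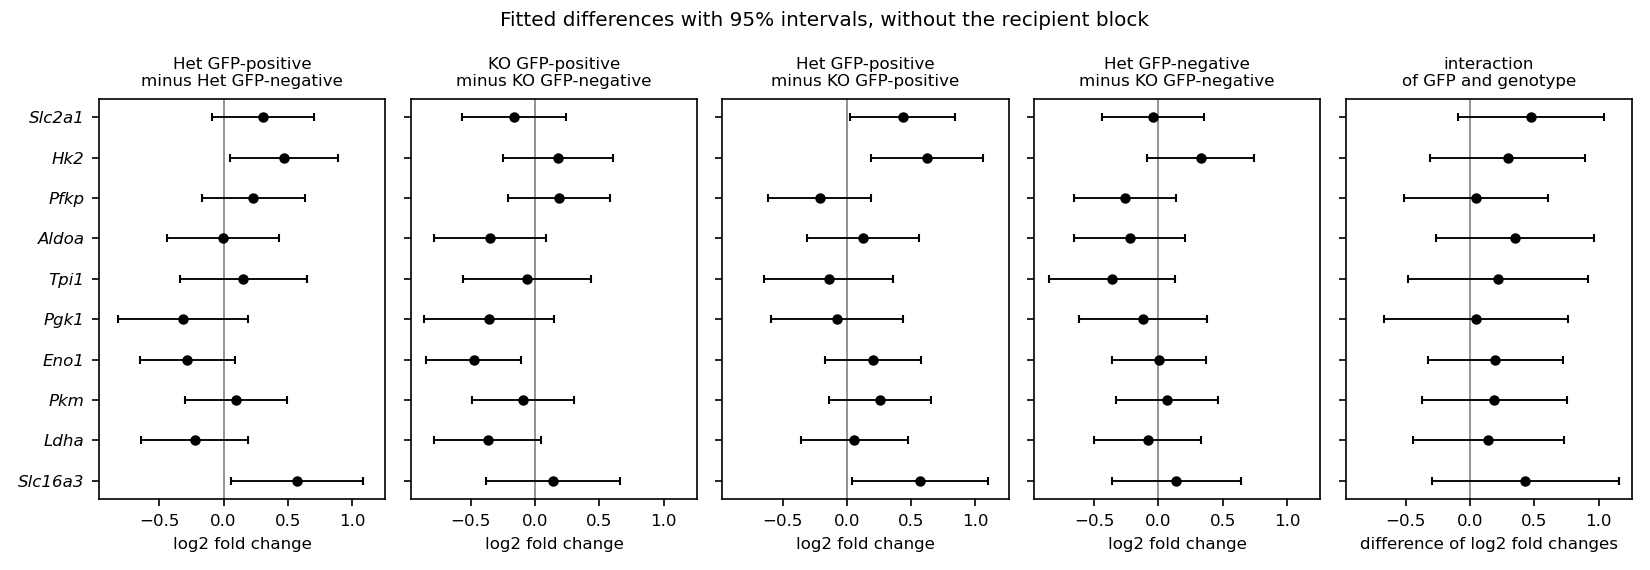
Fitted difference of each member with its 95% interval (x axis, log2 fold change, or difference of log2 fold changes in the last panel) in the 5 comparisons without the recipient block. Intervals that exclude 0 are those of Hk2 and Slc16a3 between the Het sorts, Eno1 between the KO sorts, and Slc2a1, Hk2 and Slc16a3 between the GFP-positive groups, none of them called after adjustment.

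Across libraries the members did not vary as 1 block. Over the 12 libraries Pgk1 and Ldha went together most closely (r = 0.91 of log2 CPM + 1), followed by Aldoa with Ldha (0.87) and Eno1 with Ldha (0.84), and Hk2 went with Slc16a3 (0.79). Pfkp and Eno1 ran opposite (-0.53). Against the mean of the other 9 members, Aldoa had r = 0.76, Ldha 0.72 and Pkm 0.72, whereas Hk2 had 0.25 and Pfkp -0.10. These are descriptions over 12 libraries that share recipients and differ in depth. For the GFP-positive minus GFP-negative differences of the 6 recipients, every pair of members had r above 0. The values ran from 0.03 (Pfkp with Slc16a3) to 0.95 (Aldoa with Pkm). There Pfkp with Eno1 had 0.47 and Hk2 with Ldha 0.79, each from 6 differences. The members' mean z-score was lowest in KO GFP-positive replicate 2 (-0.88) and Het GFP-positive replicate 1 (-0.85) and highest in Het GFP-positive replicate 3 (0.80) and KO GFP-negative replicate 3 (0.80), so it did not sort by group. Among 9810 other genes of at least 5 CPM, those most like it were Hspd1 (r = 0.91), a mitochondrial chaperone, Erp29 (0.91), of the endoplasmic reticulum, Cdv3 (0.91), Aco1 (0.90), cytosolic aconitase, Psmd2 (0.89), a proteasome subunit, and Sde2 (0.89), each over 12 libraries. Least alike were Rftn1 (r = -0.93), Rnf111 (-0.86), Maml2 (-0.86) and Gdpd5 (-0.84).

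The other 27 genes of glycolysis and lactate handling split in the same comparison within recipients. Of 22 tested, 7 rose and 5 fell in GFP-positive cells, with a median of 0.20, where 20.3% of all tested genes rose and 20.7% fell, so the number that fell was near the background. Hk3, the hexokinase known from myeloid cells, rose by 2.52 (SE 0.22, FDR 2.63e-05), from 9.46 ± 5.83 to 55.4 ± 31.6 CPM in Het cells (SD, n = 3 each) and from 5.06 ± 5.52 to 31.6 ± 37.2 CPM in KO cells (SD, n = 3 each). Pfkfb4 (1.83) and Pfkfb1 (0.83), enzymes that set the level of an activator of phosphofructokinase, and the sugar transporter Slc2a6 (1.23) also rose, by log2 fold change. Besides these 4, Pklr, the pyruvate kinase of liver and red cells, had the largest rise of the list, 2.65 on the log2 scale. Its mean went from 0.470 to 2.66 CPM in Het cells and from 0.960 to 6.94 CPM in KO cells. Ldhb and Pfkm were the remaining ones that rose, outside the rule for naming by level or rank. Slc2a3, the transporter GLUT3 of T cells and neurons, fell by 0.77 (SE 0.14, FDR 0.00169), from 170 ± 20.8 to 103 ± 38.0 CPM in Het cells (SD, n = 3 each) and from 169 ± 19.3 to 103 ± 34.7 CPM in KO cells (SD, n = 3 each). Tigar (-0.68), a phosphatase that slows glycolysis, Bpgm (-0.66), which makes bisphosphoglycerate, and Bsg (-0.47), the partner protein of lactate transporters, also fell. Slc2a3 was lower in 6 of 6 recipients and Hk3 higher in 6 of 6, as the myeloid sum was. Over 13 alternatives 5 to 9 genes of the list rose and 4 to 6 fell.

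Of 12 tested genes that take pyruvate into mitochondria, 0 rose and 7 fell within recipients, with a median of -0.42, beside 20.3% of all tested genes that rose and 20.7% that fell. Mpc2, a subunit of the mitochondrial pyruvate carrier, fell by 0.63 (SE 0.13, FDR 0.00321), in 6 of 6 recipients. Pdp1 (-0.62), a phosphatase that switches pyruvate dehydrogenase on, and its subunit genes Pdhb (-0.52) and Pdha1 (-0.44) fell in 6 of 6 recipients each. Without the recipient block 1 of the 7 was called, where 18.1% of all tested genes were called in either direction. Leaving out recipients gave 5 to 8. In the pentose phosphate pathway, which branches off after hexokinase, 1 of 7 genes rose and 1 fell, beside 20.3% and 20.7% of all tested genes. Pgd, which makes NADPH, rose by 0.82 (SE 0.14, FDR 0.00123), in 6 of 6 recipients, from 39.8 ± 3.10 to 87.4 ± 24.1 CPM in Het cells (SD, n = 3 each). Pgd was also called between the Het sorts without the block, and Pgls fell by 0.35 (FDR 0.0254), a call that was lost with DESeq2, without Het recipient 2 and without KO recipient 3.

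Of 11 regulators, 1 rose and 3 fell within recipients, a share near the 41.1% of all tested genes called in either direction. Hif1a, the oxygen-regulated subunit of HIF-1, fell by 0.61 (SE 0.13, FDR 0.00465), from 391 ± 47.6 to 290 ± 135 CPM in Het cells (SD, n = 3 each) and from 338 ± 15.6 to 208 ± 31.7 CPM in KO cells (SD, n = 3 each), and was lower in 5 of 6 recipients. Egln3 (-0.75), a prolyl hydroxylase that marks HIF for decay, and Epas1 (-0.42), which encodes HIF-2 alpha, also fell, and Arnt, the constant partner of both, rose by 0.37. Myc had a value of 0.34 and did not pass (FDR 0.101). Without the block 0 regulators rose and 1 fell, where 18.1% of all tested genes were called in either direction. The number that rose was 0 without Het recipient 2, Het recipient 3 or KO recipient 3 and 3 without KO recipient 1.

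Of 14 tested genes that low oxygen is known to raise, chosen outside glycolysis, 1 rose and 8 fell within recipients, with a median of -0.42, beside 20.3% of all tested genes that rose and 20.7% that fell. Ero1l, an oxidase of the endoplasmic reticulum, fell by 1.39 (SE 0.13, FDR 4.31e-05), from 169 ± 58.8 to 55.7 ± 19.2 CPM in Het cells (SD, n = 3 each) and from 114 ± 22.3 to 49.2 ± 4.93 CPM in KO cells (SD, n = 3 each), and was also called between the Het sorts without the block. Higd1a (-0.84), Mif (-0.74) and Bnip3l (-0.66), a mitophagy receptor, fell in 6 of 6 recipients each. Vegfa, the vascular growth factor, was the 1 gene of the list that rose. Without the block 4 genes fell, where 18.1% of all tested genes were called in either direction. When recipients were left out, 6 to 8 fell. Of the 10 T cell markers 7 fell and 0 rose in the same comparison, with a median of -0.56, and the part of a smaller T cell share in the lower values of these lists was not tested.

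**Figure D4:**
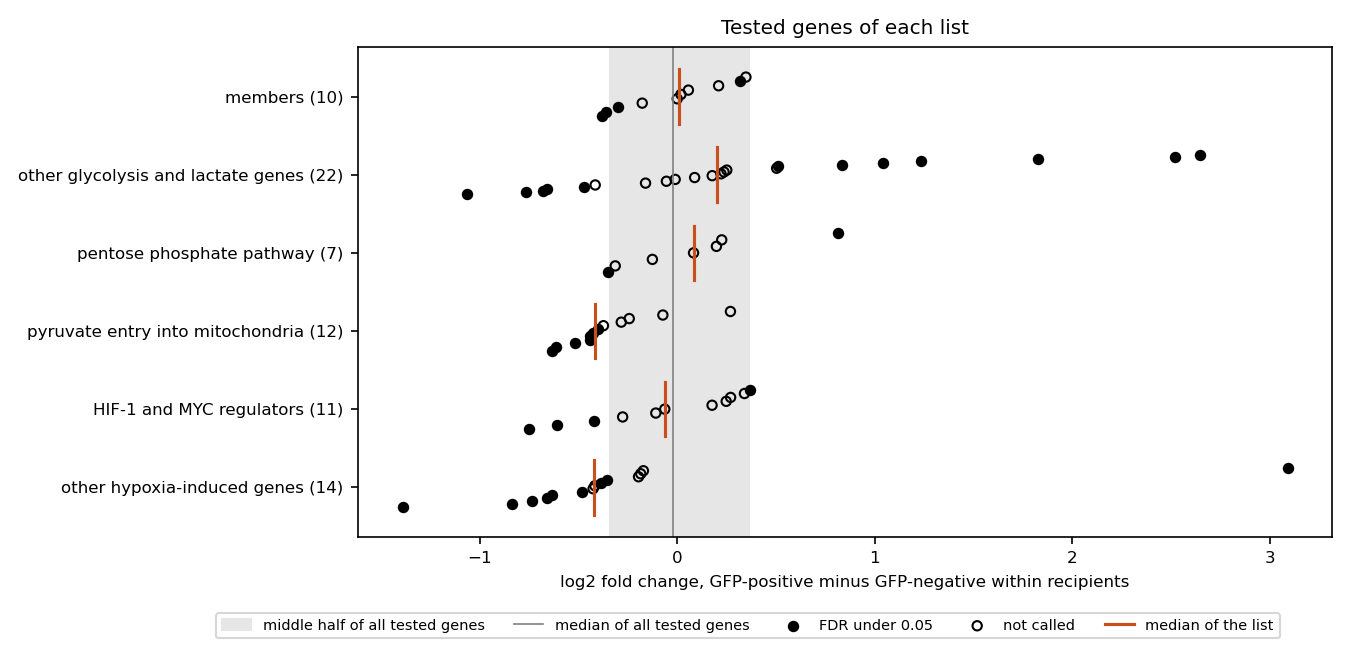
Log2 fold change within recipients (x axis) of each tested gene of 6 lists (rows, number tested in brackets), filled where the FDR is under 0.05, with the median of each list in orange and the interquartile range of all tested genes in grey. The 10 members lie between -0.38 and 0.35, a narrower span than the other glycolysis genes, which reach from -1.06 to 2.65.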

How the data were processed

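Total RNA of sorted splenic CD4+ T cells was depleted of ribosomal RNA and made into stranded libraries, per the labels' protocols. The authors deposited whole-number counts per gene for 12 libraries, not normalized and not pooled, with summed exon lengths, per the file headers. TopHat2 2.0.13, featureCounts 1.5.0-p1, bcl2fastq 1.8.4, DESeq2 1.6.1 and the build mm10 are named in the submitters' processing notes. The authors' deposited DESeq2 tables hold the mean normalized count (a signal), the log2 fold change with its error, a test statistic (score) and p-values computed by the authors, and only membership in them was used here. Symbols and coordinates came from the count files and GENCODE M21 (GRCm38), which held 42462 of 43626 identifiers.

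Differences were tested on the deposited counts with edgeR 4.0.16 (R 4.3.3), quasi-likelihood F-test, two-sided, TMM scaling and filterByExpr (minimum count 10, total 15), in 1 fit over all 12 libraries without a recipient term for 5 comparisons. The comparison within recipients had the recipient as a block. P-values were adjusted over the 13238 tested genes. Each standard error was taken from the log2 fold change and its F value. Total counts of 2116894 to 18167236 per library set the precision, and without molecular identifiers PCR copies are not told apart.

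Same-numbered libraries share a recipient per the design text, and after the group means were subtracted their correlations were 0.580, 0.278 and 0.666 in Het and 0.535, 0.554 and 0.256 in KO recipients. How donors were divided among recipients is not given in the sources used here, and p-values cover the spread between these samples. Members and lists were chosen with earlier results of these data known. Named are all members and, of each other list, up to 4 called genes in each direction with at least 5 CPM in the higher group. Alternatives were DESeq2 1.42.0 as a test, DESeq2 size factors, no filter, offsets for GC content and length, adding copies, a pseudocount of 0.1 CPM, the block, and leaving out libraries or recipients. The fits were tested on simulated data with effects larger than any fitted for a member, so that test does not bear on calls of the members' size.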

Additional observations from a re-analysis of the deposited data

How the results depend on the processing

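No member result was reversed. Of 900 member results under alternatives, 871 stayed on the same side of the threshold, most of them without a call to lose. In all, 21 lost their call, 8 gained one, and 65 changed sign with neither value called. The 21 losses were all among the members called within recipients. Of these, Eno1 kept its call in 13 of 13 alternatives, Pgk1 and Ldha in 7 of 13 each, and Hk2 in 4 of 13. With the recipient as a replicate block, 1 member was called between the KO sorts (Eno1, among 2349 genes in all). None was called between the Het sorts (among 2944) or in the interaction (among 10). With the replicate block and an offset for GC content and length together, 1 member was called between the Het sorts (Eno1), beside 24.2% of all tested genes. Between the KO sorts 3 were called (Aldoa, Eno1 and Ldha), beside 20.9% of genes. Within recipients, where 4 members were called, no replicate block left 1 (Eno1), and leaving out recipients gave 1 to 3. DESeq2 called 3 there, no filter 3, DESeq2 size factors 5, with Slc16a3 at an FDR of 0.0483, and the offset for GC content and length 4. With DESeq2 the median within recipients was 0.30, taken over the 23675 genes with any count and not over the 13238 that passed the filter. The 2 medians thus cover different genes, and the cause of the difference was not tested. The members' values moved little (Eno1 -0.37, Hk2 0.33). In the comparisons between genotypes 0 members were called under any alternative, where at most 0.700% of all tested genes were. Adding copies matched by sequence, an alternative chosen after seeing the data, changed no member's call. Within recipients the offset for GC content and length lowered the value of every member but Pgk1, and also the median over all tested genes. Why it did so, with Hk2, Pfkp and Slc16a3 nearer 0 and Pkm further from it, was not tested. The shallowest library, KO GFP-positive replicate 2, has 967089 counts outside the 4 abundant features, and the count without its recipient is among those given.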

Other observations

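Of 17 tested genes of DNA replication and division, 6 rose and 1 fell in GFP-positive cells within recipients by edgeR's test, a share near the 41.1% of all tested genes called there. Aurkb rose by 0.48 on the log2 scale (SE 0.12, FDR 0.00757), Mcm3 by 0.46 (SE 0.09, FDR 0.00321), Mcm5 by 0.45 and Mcm2 by 0.39, each in 6 of 6 recipients. Pcna, the replication clamp, fell by 0.51 (SE 0.15, FDR 0.0167). Of 10 genes known to respond early to cell handling, 5 rose and 0 fell, where 20.3% of all tested genes rose and 20.7% fell. Fosb stood at 22.3 ± 4.14 CPM without and 41.5 ± 12.5 CPM with GFP in Het recipients (SD, n = 3 each), and at 39.7 ± 17.6 and 99.1 ± 28.3 CPM in the KO sorts (SD, n = 3 each), a rise of 1.12 within recipients (FDR 0.00012), and Fos rose by 0.90. Their sum was higher in the GFP-positive library of 6 of 6 recipients, and its part in the members' values was not tested. Of 3 tested NK cell genes, Tyrobp, which myeloid cells also use, rose by 1.64 and Klrb1c fell by 1.22. Of 2 tested CD8 genes 0 were called, and 10 of 11 tested genes of red cells and platelets rose.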
